A study of Mus musculus with 6 samples.

Results

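The genes described here are the cyclins, the cyclin-dependent kinases (Cdks), the Cdk inhibitors, the retinoblastoma (Rb) family, the E2f transcription factors and the Cdc25 phosphatases of the mouse. They were chosen by symbol, from 45 names, and 44 of them had a row among the 22432 genes of the authors' deposited table. The G1/S cyclin gene Ccne1 was not analysed here. RNA had been sequenced from male germline stem cells in culture, which renew themselves and found sperm production in the testis, sorted by 2 surface proteins: CDH1 (E-cadherin, a cell adhesion molecule) and THY1 (a glycoprotein used to enrich these cells). The 3 CDH1+/THY1+ samples and the 3 CDH1-/THY1+ samples came from the same 3 cultures, RP7, RP5 and WT1, at passage 6 to 8. RP7 (age 8 weeks) and RP5 (19 days) carried the strain label OCT4/GFP; Dox-OCT4, and WT1 (5 weeks) the label C57BL/6. All cells had grown on DR4 fibroblast feeders with GDNF and FGF, so both populations share the feeder, the medium and the culture of origin. Per culture there was 1 sample of each population.

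In the cell cycle, D-type cyclins activate Cdk4 and Cdk6 in G1, and these kinases phosphorylate Rb proteins and so release E2f factors, which switch on genes of DNA synthesis. Cyclins E and A with Cdk2 carry cells through S phase, and cyclin B with Cdk1 drives mitosis. INK4 proteins block Cdk4 and Cdk6, Cip/Kip proteins bind cyclin-Cdk complexes, and Cdc25 phosphatases remove inhibitory phosphates from Cdks. Other members of the family regulate RNA polymerase II and not the cell cycle itself. In germline stem cells GDNF and FGF signalling is known to promote division, and cyclin D2 has been linked to spermatogonia.

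The question of the comparison was which RNAs differ when THY1+ cells carry CDH1 on their surface and when they do not. Calls among the members fell in both directions. In CDH1+/THY1+ cells the mitotic kinase gene Cdk1, the pocket-protein partner gene E2f4 and the Cdk inhibitor gene Cdkn1b were more than 2-fold higher, while the retinoblastoma gene Rb1 and the transcriptional kinase genes Cdk12 and Cdk8 were lower. DESeq2, as run for the authors' deposited table, called 13 members higher and 5 lower at an adjusted p under 0.05, of 43 with an adjusted p, which is 41.9%. The background in the same table was 33.5% of 19211 genes, with 17.1% called higher and 16.4% called lower. Nearly all members are abundant: the mean normalised count reached 100 or more in 43 of 44, and among all genes of that abundance 44.3% were called, against 18 of 42 members (42.9%). At least 2-fold changes were called in 3 members on the higher side (7.47% of all genes) and in 0 on the lower side (6.54%). The share of members called was thus near that of genes of like abundance, and the median log2 fold change was 0.23 for members and 0.01 for all genes. Of 11133 genes of that abundance with an adjusted p, 2521 were called higher and 2414 lower. The counts by family below rest on few genes each and stand against these shares.

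Values with ± are log2 fold changes and the standard errors of the authors' DESeq2 test, positive where CDH1+/THY1+ cells were higher. The table holds no value per library, so no level per sample, no spread within a population and no count of samples that show a direction can be given. The direction rests on the name of the table, since Cdh1 itself was not analysed here. It was not checked against any other value, so every higher and lower given here depends on that name. The rows end at a log2 fold change of 2.14 on the higher side and reach -2.94 on the lower side. Whether the table is held here in full is not known, so every count, share called and rank, on the higher side above all, covers these rows only. In bulk RNA, fewer cells of a type and less RNA per cell cannot be told apart. In the same comparison 12 of 14 germ cell markers were lower and 0 higher (median log2 fold change -1.74), and 5 of 16 fibroblast markers were higher and 0 lower (median 0.93) according to the authors' deposited table. Log2 fold changes ran from -2.22 to -0.36 in the germ cell list and from 0.04 to 1.49 in the fibroblast list. Over all 6 libraries the median of the mean counts was 2935 for germ cell markers (highest 14797) and 5367 for fibroblast markers (highest 89729). Of the Sertoli cell markers with an adjusted p, 1 was higher and 1 lower of 7, and all 3 leukocyte markers with a row were higher, with mean counts of at most 134. The part of these shifts in the results for cell cycle genes was not tested.

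**Figure D1:**
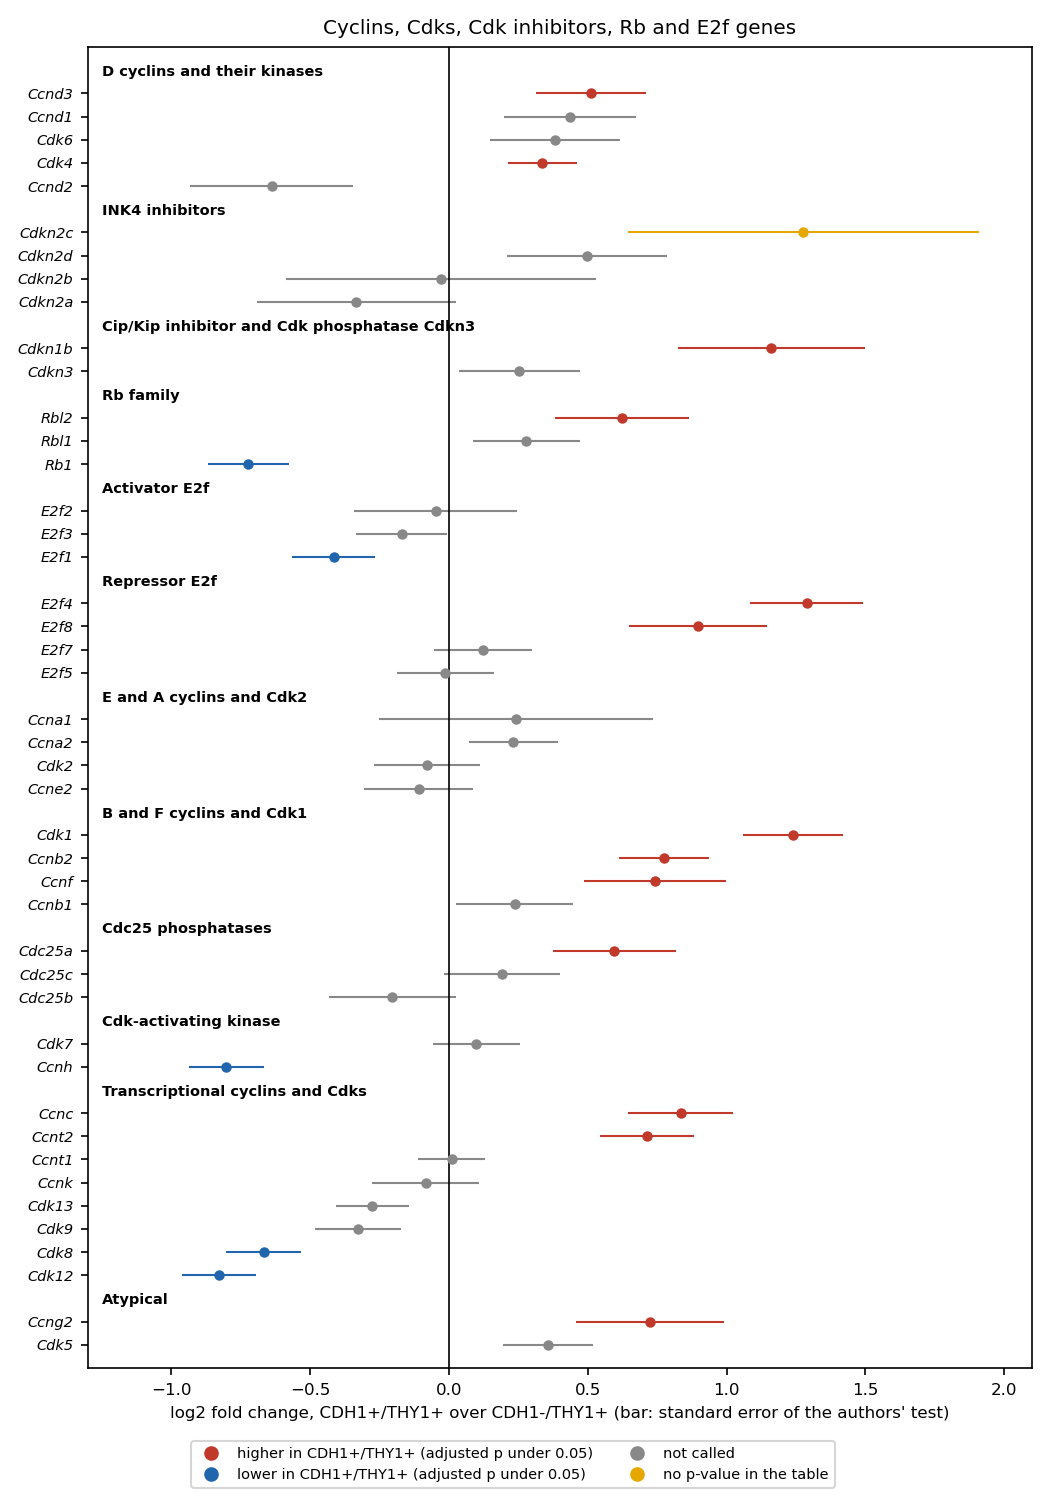
Log2 fold change (x axis, positive where CDH1+/THY1+ cells were higher than CDH1-/THY1+ cells) of the 44 members by family, with bars for the standard error of the authors' test. The highest called values are E2f4 (1.29), Cdk1 (1.24) and Cdkn1b (1.16), the lowest are Cdk12 (-0.83) and Ccnh (-0.80), and Cdkn2c, in yellow, had no p-value.

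The G1 cyclins did not move as a group. Of the 5 genes of D cyclins and their kinases, 2 were higher and 0 lower. Ccnd3, the cyclin D3 gene (chromosome 17, 47505051 to 47599691, plus strand, GRCm38), rose by 1.43-fold (0.51 ± 0.20, adjusted p = 0.0301) according to the authors' deposited table, at a mean normalised count of 2075. Its main kinase partner gene Cdk4 (chromosome 10, 127063534 to 127067920, plus strand) rose by 1.26-fold (0.34 ± 0.12, adjusted p = 0.0233) according to the authors' deposited table, at a mean count of 4744. These are small changes, and both calls ended under a Benjamini-Yekutieli adjustment, with an adjusted p of 0.394 for Ccnd3 and 0.307 for Cdk4. Ccnd2, the cyclin linked to spermatogonia, had -0.64 ± 0.29 (adjusted p = 0.076) according to the authors' deposited table, so it was not called although its fold change was the largest of the 5. Ccnd1, the cyclin D1 gene, had 0.44 ± 0.24 (adjusted p = 0.143) according to the authors' deposited table, and the kinase gene Cdk6 had 0.38 ± 0.23 (adjusted p = 0.202). The standard errors of Ccnd1 and Ccnd2 exceeded those of 93.5% and 97.5% of the 200 genes of nearest mean count.

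Over both populations together, the level per length put Cdk4 first among all members, with a mean normalised count of 1460 per kb of exon according to the authors' deposited table. Ccnd1 had 988 per kb, Ccnd2 565 per kb, Ccnd3 236 per kb and Cdk6 36.6 per kb on this scale of the authors' deposited table. Cdk4 RNA was thus far above Cdk6 RNA, and Ccnd3, the D cyclin that rose, was the least abundant of the 3. Reads of Cdk4 and Ccnd1 may include reads of a neighbour: 19.7% of the exon bases of Cdk4 overlap Tspan31 and 23.4% of those of Ccnd1 overlap LTO1, both on the opposite strand, and whether the counting used strand is not given in the sources used here.

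None of the INK4 inhibitors, which block Cdk4 and Cdk6, was called in DESeq2's test. Of 4 genes, 3 had an adjusted p according to the authors' deposited table. Cdkn2a, whose locus encodes both p16Ink4a and p19Arf, had -0.33 ± 0.36 (adjusted p = 0.512) according to the authors' deposited table, and gene-level counts do not separate its products. Its neighbour Cdkn2b (p15Ink4b) had -0.03 ± 0.56 (adjusted p = 0.976) and Cdkn2d (p19Ink4d) 0.50 ± 0.29 (adjusted p = 0.173) according to the authors' deposited table. Cdkn2c (p18Ink4c) had the second highest fold change of any member, 1.28 ± 0.63, but its p-value was empty according to the authors' deposited table, although its mean count was 216. The table left 102 genes without a p-value, of which 98 had a fold change above 0 and 40 a mean count of at least 100. Standard errors of the INK4 genes were large for their abundance. Those of Cdkn2a, Cdkn2b and Cdkn2c exceeded the standard errors of 94.5%, 98% and 99.5% of genes of nearest mean count, so a change of either direction could have been missed. Among fibroblast markers the median of that percentile was 96.2, and among germ cell markers 84.8.

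**Figure D2:**
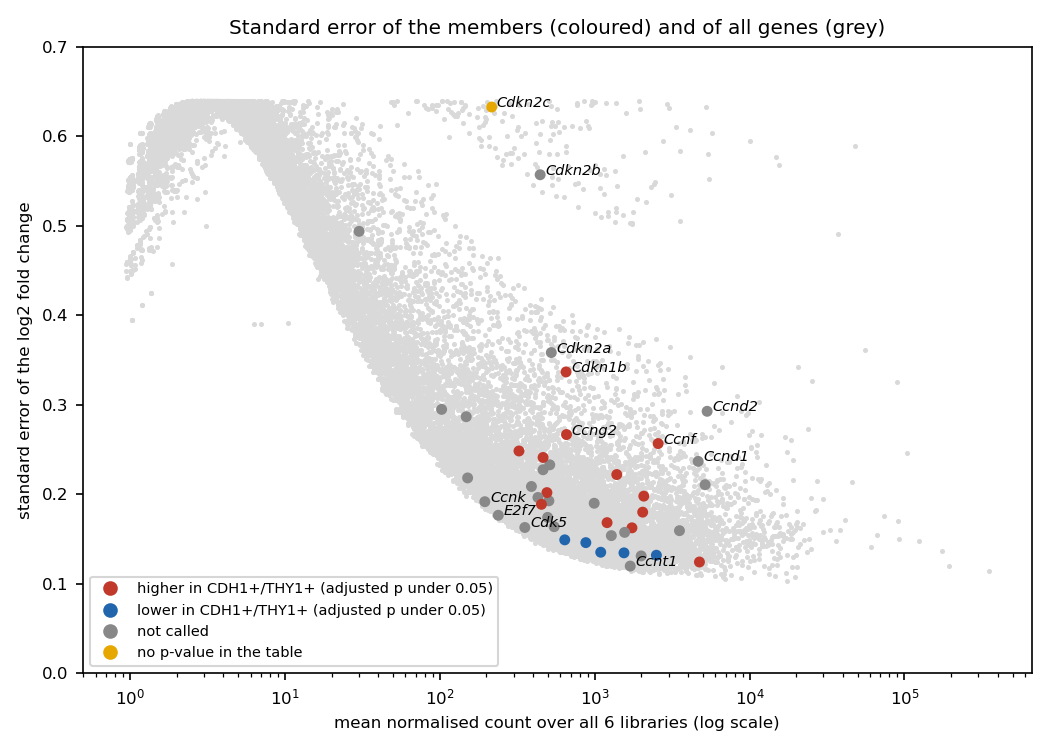
Standard error of the log2 fold change (y axis) against the mean normalised count over all 6 libraries (x axis, log scale), with members coloured by call and all genes in grey. Cdkn2c (0.63) and Cdkn2b (0.56) lie far above the band of genes of like abundance, whereas Ccnt1 (0.12) lies at its lower edge.

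Cdkn1b encodes p27Kip1, which binds and inhibits cyclin E-Cdk2. The gene (chromosome 6, 134920401 to 134925513, plus strand) rose by 2.24-fold (1.16 ± 0.34, adjusted p = 0.00283) at a mean count of 653 according to the authors' deposited table. Its standard error exceeded that of 97.5% of genes of like abundance, and the call held under the Benjamini-Yekutieli adjustment (adjusted p = 0.039). Cdkn3, a phosphatase that acts on Cdk2, had 0.25 ± 0.22 (adjusted p = 0.392) according to the authors' deposited table.

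Within the Rb family the members moved apart. Rb1, the retinoblastoma gene (chromosome 14, 73183673 to 73325822, minus strand), fell to -0.72 ± 0.15 (1.65-fold lower, adjusted p = 8.2e-06) according to the authors' deposited table, at a mean count of 877. Rbl2, which encodes p130, the pocket protein typical of resting cells (chromosome 8, 91070057 to 91123844, plus strand), rose by 1.54-fold (0.62 ± 0.24, adjusted p = 0.0311) at a mean count of 464 according to the authors' deposited table. Rbl1, which encodes p107, had 0.28 ± 0.19 (adjusted p = 0.27) according to the authors' deposited table. The call of Rbl2 ended under the Benjamini-Yekutieli adjustment (adjusted p = 0.407), and that of Rb1 did not (adjusted p = 0.000123). Per kb of exon, Rb1 had a mean normalised count of 146, Rbl1 84.4 and Rbl2 61.4 according to the authors' deposited table, so the pocket protein gene that fell was the most abundant over both populations. Of the exon bases of Rbl2, 11.8% overlap Gm45464 and 9.17% overlap Aktip on the opposite strand. In all, 8 members share at least 10% of their exon bases with 1 other gene. Besides Cdk4, Ccnd1 and Rbl2 they include Ccne2 (17.4%), Cdc25c (12.7%), Ccna2 (12.5%), E2f8 (11.2%) and Ccna1 (10.1%), each with a gene on the opposite strand.

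Among the E2f genes, 1 of 3 activators was lower and 2 of 4 repressors were higher. E2f1, the best known activator (chromosome 2, 154559407 to 154569892, minus strand), fell to -0.42 ± 0.15 (1.33-fold lower, adjusted p = 0.0189) at a mean count of 641 according to the authors' deposited table. The other activators, E2f2 and E2f3, had -0.05 ± 0.30 and -0.17 ± 0.16 and were not called according to the authors' deposited table (adjusted p = 0.923 and 0.458). E2f4, a repressor that works with p107 and p130 (chromosome 8, 105297663 to 105305370, plus strand), rose by 2.44-fold (1.29 ± 0.20, adjusted p = 4.45e-09) at a mean count of 491 according to the authors' deposited table, the highest fold change of the called members. E2f8, an atypical E2f that represses its targets without a DP partner (chromosome 7, 48866429 to 48881596, minus strand), rose by 1.86-fold (0.90 ± 0.25, adjusted p = 0.00163) at a mean count of 324 according to the authors' deposited table. Its relative E2f7 had 0.12 ± 0.18 (adjusted p = 0.639) and E2f5, the closest relative of E2f4, had -0.01 ± 0.17 (adjusted p = 0.967) according to the authors' deposited table. E2f4 and E2f8 kept their calls under the Benjamini-Yekutieli adjustment (adjusted p = 7.55e-08 and 0.0227), and E2f1 lost its call (0.25). Per kb of exon, E2f5 led the family with a mean normalised count of 279, followed by E2f1 with 203 and E2f4 with 200.4, while E2f2 had 21.05 according to the authors' deposited table.

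S-phase members were not called by DESeq2. Ccna2, cyclin A2, was abundant, with a mean normalised count of 863 per kb of exon, and had a log2 fold change of 0.23 ± 0.16 (adjusted p = 0.268) according to the authors' deposited table. Its partner gene Cdk2 had -0.08 ± 0.19 (adjusted p = 0.791), and Ccne2, cyclin E2, had -0.11 ± 0.20 (adjusted p = 0.717) according to the authors' deposited table. The male meiotic cyclin gene Ccna1 had the lowest level of any member, a mean normalised count of 16.4 per kb of exon and of 30.1 per gene, with a log2 fold change of 0.24 ± 0.49 (adjusted p = 0.752) according to the authors' deposited table. Ccne1 was not analysed here, so the cyclin E genes are covered in part only.

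Of the 4 mitotic members, 3 were higher and 0 lower. Cdk1, the kinase that starts mitosis (chromosome 10, 69335146 to 69352938, minus strand), rose by 2.36-fold (1.24 ± 0.18, adjusted p = 2.1e-10) at a mean count of 2041 according to the authors' deposited table. Ccnb2, cyclin B2, one of its activating cyclins, rose by 1.71-fold (0.78 ± 0.16, adjusted p = 1.84e-05) at a mean count of 1740 according to the authors' deposited table. Ccnf, cyclin F, an F-box protein that activates no Cdk and instead directs ubiquitin ligase to its targets (chromosome 17, 24222198 to 24251484, minus strand), rose by 1.67-fold (0.74 ± 0.26, adjusted p = 0.0142) at a mean count of 2567 according to the authors' deposited table. Ccnb1, cyclin B1, the main mitotic cyclin, had 0.24 ± 0.21 and was not called (adjusted p = 0.413) according to the authors' deposited table. Under the Benjamini-Yekutieli adjustment Cdk1 and Ccnb2 kept their calls (adjusted p = 3.76e-09 and 0.000271) and Ccnf did not (0.189). Both B cyclins were among the 3 most abundant members per length, with mean normalised counts of 1224 per kb for Ccnb1 and 1136 per kb for Ccnb2, against 414 for Cdk1 and 329 for Ccnf according to the authors' deposited table. The annotation lists a processed pseudogene of each B cyclin, Ccnb1-ps on chromosome 7 and Ccnb2-ps on chromosome 8, and reads of near-identical copies may have been split between them. The same limit holds for Ccnd3, with Ccnd3-ps on chromosome 4.

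Of the Cdc25 phosphatases, which activate Cdks, 1 of 3 was higher. Cdc25a, which acts at both G1/S and G2/M (chromosome 9, 109875579 to 109893895, plus strand), rose by 1.51-fold (0.60 ± 0.22, adjusted p = 0.0242) at a mean count of 1388 according to the authors' deposited table, and its call ended under the Benjamini-Yekutieli adjustment (adjusted p = 0.318). Cdc25b and Cdc25c, which act at mitosis, had -0.20 ± 0.23 and 0.19 ± 0.21 and were not called according to the authors' deposited table (adjusted p = 0.532 and 0.517).

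For 4 of the members called higher, Cdk1, Ccnf, Cdc25a and E2f8, the sequence before the start is shown with 3 known elements in capitals. Not all members called higher have such matches, and the windows of Cdk4 and Ccng2 held none of the 3. That of Ccng2 lies wholly inside the longer GENCODE gene, so the sequence before its start was not searched. The only windows of members called higher with an E2f site, those of Cdk1 and Cdc25a, are both among those shown. The CHR, the element through which MuvB complexes act on G2/M genes, was searched as TTTGAA or TTTAAA. The E2f site was searched as TTTCCCGC, TTTCGCGC, TTTGCCGC or TTTGGCGC, and the CCAAT box of factor NF-Y as CCAAT. All were searched on both strands, so that TTCAAA and ATTGG in capitals are matches on the other strand, and no capitals overlap. Sequences are from RefSeq on GRCm38.p6, run 5′ to 3′ on the gene's strand, and end at the base before the most upstream start of RefSeq or GENCODE. They cover, in this order, chr10:69352939-69353162 (minus), chr17:24251485-24251659 (minus), chr9:109875329-109875578 (plus) and chr7:48881597-48881846 (minus).
Cdk1: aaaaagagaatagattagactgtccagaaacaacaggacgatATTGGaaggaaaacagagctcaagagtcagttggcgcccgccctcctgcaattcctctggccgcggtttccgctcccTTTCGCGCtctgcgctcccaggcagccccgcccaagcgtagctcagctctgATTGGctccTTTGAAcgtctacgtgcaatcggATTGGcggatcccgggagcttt
Ccnf: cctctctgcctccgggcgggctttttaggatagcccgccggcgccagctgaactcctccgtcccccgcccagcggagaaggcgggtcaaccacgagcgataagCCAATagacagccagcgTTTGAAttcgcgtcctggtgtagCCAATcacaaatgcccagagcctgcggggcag
Cdc25a: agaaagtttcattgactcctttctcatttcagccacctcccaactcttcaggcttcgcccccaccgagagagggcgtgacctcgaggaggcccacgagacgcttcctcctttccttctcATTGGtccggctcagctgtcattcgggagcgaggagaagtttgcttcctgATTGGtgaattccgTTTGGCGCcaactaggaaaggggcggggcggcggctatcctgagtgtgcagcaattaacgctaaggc
E2f8: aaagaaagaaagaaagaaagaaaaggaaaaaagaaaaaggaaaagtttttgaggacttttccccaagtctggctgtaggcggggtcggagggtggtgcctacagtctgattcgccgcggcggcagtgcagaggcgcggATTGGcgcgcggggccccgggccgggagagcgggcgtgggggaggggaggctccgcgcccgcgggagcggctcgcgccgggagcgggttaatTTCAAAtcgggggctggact

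Counted back from the base before the RefSeq start as -1, the Cdk1 stretch holds a CHR at -71, an E2f site at -131 and CCAAT boxes at -208, -80 and -48. A further TTTGAA of Cdk1, at -15, lies inside the first exon of the longer GENCODE model and is not printed, as does one of Ccnf at -14. Ccnf has a CHR at -130 flanked by CCAAT boxes at -147 and -107, Cdc25a an E2f site at -67 and CCAAT boxes at -131 and -81, and E2f8 a CHR at -20 and a CCAAT box at -112. RefSeq windows of 250 bases were matched for 35 of the 45 members, 40 windows in all. A CHR stood in 13 of these 40 windows (32.5%), against 25.2% of 32851 windows of all genes, an E2f site in 7 (17.5%) against 1.86%, and a CCAAT box in 21 (52.5%) against 33.8%. Among the 13 windows of members called higher, 6 held a CHR, 2 an E2f site and 9 a CCAAT box, and among the 21 windows of members not called, 6, 5 and 12. The E2f site was thus not more frequent among windows of members called higher than among windows of members not called. The 3 windows of members called lower, E2f1, Cdk8 and Cdk12, held none of the letters searched. Those of E2f1 and Cdk12 lie wholly or almost wholly inside the longer GENCODE gene, so the sequence before its start was not searched in full. For Rb1 and Ccnh, also called lower, and for E2f4, called higher, no window was matched. These matches describe letters in the sequence and not binding.

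Calls were unlike in 4 cyclin-kinase pairs that act on transcription: Ccnh with Cdk7, Ccnc with Cdk8, Ccnt2 with Cdk9 and Ccnk with Cdk12. Of the alternative pairs, Ccnt1 with Cdk9 and Ccnk with Cdk13 had no call in either gene. Cdk19, the other kinase of cyclin C and not a member, had 0.01 ± 0.17 and was not called. Among cell cycle pairs, calls were unlike for Ccnb1 with Cdk1 and Ccnd1 with Cdk4. They were alike for Ccnb2 with Cdk1, Ccnd3 with Cdk4, and Ccna2 or Ccne2 with Cdk2. A call in only 1 gene of a pair does not show that the 2 genes differ from each other. Among abundant genes 44.3% were called, and whether unlike calls were more frequent in the transcription pairs than in other gene pairs was not tested. Ccnh encodes cyclin H, which with Cdk7 and Mat1 forms the Cdk-activating kinase and a part of the general factor TFIIH. Ccnh (chromosome 13, 85189408 to 85223469, plus strand) fell to -0.80 ± 0.14 (1.74-fold lower, adjusted p = 6.24e-08) at a mean count of 1094 according to the authors' deposited table. Cdk7 had 0.10 ± 0.16 and was not called (adjusted p = 0.677) according to the authors' deposited table. Mnat1, the gene of the third subunit Mat1, rose to 0.87 ± 0.17 (adjusted p = 4.73e-06) according to the authors' deposited table. The 3 subunit genes of this kinase thus had 1 higher, 1 lower and 1 not called.

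Ccnc and Cdk8, cyclin C and its kinase in the Mediator complex, were called in opposite directions. Ccnc (chromosome 4, 21727701 to 21759922, plus strand) rose by 1.78-fold (0.83 ± 0.19, adjusted p = 8.12e-05) at a mean count of 453 according to the authors' deposited table. Cdk8 fell to -0.67 ± 0.13 (1.59-fold lower, adjusted p = 8.17e-06) at a mean count of 1545 according to the authors' deposited table. Per kb of exon the pair had mean normalised counts of 88.6 for Ccnc and 157 for Cdk8 according to the authors' deposited table. Both calls held under the Benjamini-Yekutieli adjustment (adjusted p = 0.00117 for Ccnc and 0.000122 for Cdk8).

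Cdk12, which phosphorylates RNA polymerase II on long genes together with cyclin K (chromosome 11, 98203059 to 98278504, plus strand), had the lowest fold change of all members, -0.83 ± 0.13 (1.78-fold lower, adjusted p = 8.22e-09), at a mean count of 2502 according to the authors' deposited table. Its partner gene Ccnk and its relative Cdk13 had -0.08 ± 0.19 and -0.28 ± 0.13 and were not called according to the authors' deposited table (adjusted p = 0.782 and 0.0883). P-TEFb, which releases paused polymerase, pairs Cdk9 with cyclin T1 or T2. Ccnt2 rose by 1.64-fold (0.71 ± 0.17, adjusted p = 0.000173) according to the authors' deposited table, whereas Ccnt1 had 0.01 ± 0.12 (adjusted p = 0.964) and Cdk9 -0.33 ± 0.15 (adjusted p = 0.0846). Ccnt1 was the more abundant cyclin T gene over both populations, with a mean normalised count of 185 per kb of exon, against 97.4 for Ccnt2 according to the authors' deposited table. The 8 transcriptional members together had 2 higher and 2 lower, and their standard errors were small for their abundance, with a median percentile of 19.2.

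Ccng2, an unusual cyclin linked to cell cycle arrest (chromosome 5, 93267257 to 93276231, plus strand), rose by 1.65-fold (0.72 ± 0.27, adjusted p = 0.0223) at a mean count of 658 according to the authors' deposited table, a call that ended under the Benjamini-Yekutieli adjustment (adjusted p = 0.294). Cdk5, a kinase best known from neurons that cyclins do not activate, had 0.36 ± 0.16 and was not called (adjusted p = 0.0749) according to the authors' deposited table.

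**Figure D3:**
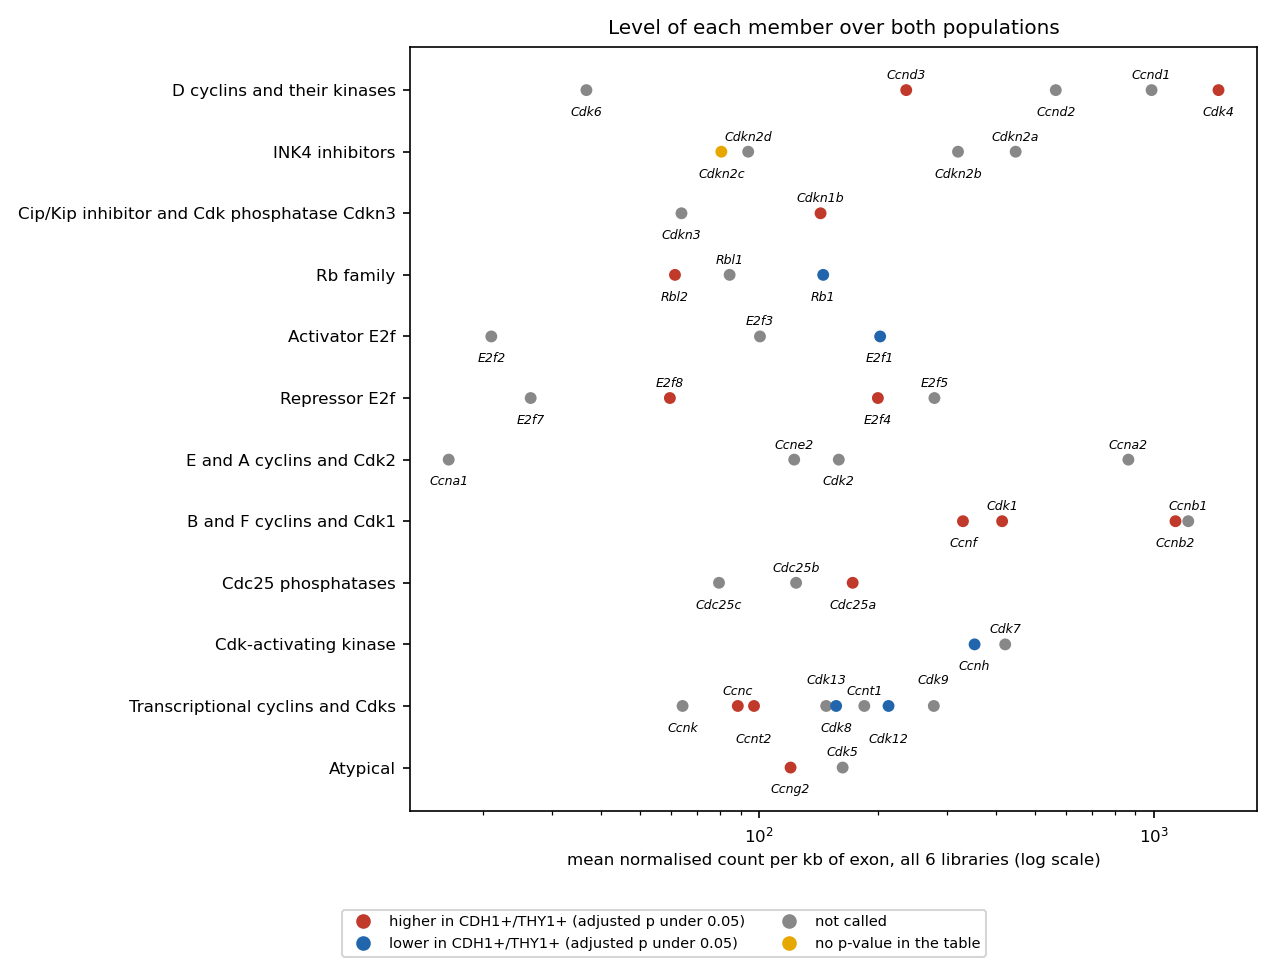
Mean normalised count per kb of exon over all 6 libraries (x axis, log scale) of each member, by family and coloured by call. Cdk4 (1460) and the B cyclins (1224 and 1136) stand at the high end, Ccna1 (16.4) and E2f2 (21.05) at the low end, and members called higher or lower occur over most of the range.

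Lists of other cell cycle genes differed in how their calls split by direction, and their shares called ranged from 21.7% to 53.8%, against 33.5% of all genes and 44.3% of abundant genes. Among partners of the DREAM and MuvB complexes, which join p130, p107 and E2f4 to cell cycle promoters, 3 of 11 were higher and 2 lower, with a median log2 fold change of -0.11. Mybl2 (B-Myb), the MuvB partner that activates mitotic genes, rose to 1.81 ± 0.29 (adjusted p = 1.19e-08) and its relative Mybl1 to 1.04 ± 0.17 (adjusted p = 5.94e-08) according to the authors' deposited table. Dyrk1a, the kinase that promotes DREAM assembly, fell to -0.75 ± 0.12 (adjusted p = 3.77e-08) and Lin54, the MuvB subunit that contacts the CHR, to -0.54 ± 0.14 (adjusted p = 0.000795) according to the authors' deposited table. The share called, 45.5%, was near the 44.3% of abundant genes.

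Of 27 genes of G2/M, 10 were higher and 0 lower, with a median of 0.30. Hmmr, a spindle protein gene, rose to 1.42 ± 0.23 (adjusted p = 1.59e-08) and Birc5 (survivin) to 1.34 ± 0.24 (adjusted p = 3.58e-07) according to the authors' deposited table. The share called, 37.0%, was below the 44.3% of abundant genes called in either direction. Every call of the list was in the direction of Cdk1, Ccnb2 and Ccnf, and in that direction 2521 of 11133 abundant genes were called. Replication licensing genes had 4 higher and 1 lower of 23 (median 0.17), a share of 21.7% and so below the 33.5% of all genes. In this list stood Gins2, a subunit of the replicative helicase, at 1.14 ± 0.24 (adjusted p = 2.63e-05), Orc5 at 0.68 ± 0.21 (adjusted p = 0.00575) and the kinase gene Cdc7 at -0.53 ± 0.21 (adjusted p = 0.0382) according to the authors' deposited table. DNA synthesis genes that E2f activates were called evenly, 5 higher and 5 lower of 19 (52.6%, median -0.10). Rrm2, the ribonucleotide reductase subunit limiting in S phase, rose to 1.81 ± 0.24 (adjusted p = 1.03e-12) according to the authors' deposited table. Pole, a replicative polymerase gene, fell to -0.73 ± 0.20 (adjusted p = 0.00125) and Ung, the uracil glycosylase gene, to -0.58 ± 0.18 (adjusted p = 0.00433) according to the authors' deposited table.

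Ubiquitin ligase genes of the cell cycle had 5 higher and 4 lower of 22 (40.9%, median -0.05). The mitotic E2 enzyme gene Ube2c rose to 1.15 ± 0.17 (adjusted p = 3.4e-10) and Fbxo5, an inhibitor of the anaphase-promoting complex, to 1.42 ± 0.24 (adjusted p = 4.25e-08) according to the authors' deposited table. Subunit genes of that complex were called in both directions. Anapc4 and Anapc1 fell to -0.68 ± 0.14 (adjusted p = 5.85e-06) and -0.47 ± 0.14 (adjusted p = 0.00453) according to the authors' deposited table. Its subunit genes Cdc23 and Cdc26, chosen after their values were seen, rose to 0.50 ± 0.14 (adjusted p = 0.00191) and 0.61 ± 0.22 (adjusted p = 0.0188) according to the authors' deposited table. Among regulators of Cdk phosphorylation and Cks proteins, 1 of 10 was higher and 2 lower (30.0%, median 0.08). Cks1b, a Cdk-binding protein gene, rose to 0.77 ± 0.19 (adjusted p = 0.000315), and Wee1, the kinase that inhibits Cdk1, fell to -0.52 ± 0.20 (adjusted p = 0.026) according to the authors' deposited table, as did Cables2 to -0.62 ± 0.22 (adjusted p = 0.0182).

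Other cyclins, Cdks and inhibitors had 4 higher and 5 lower of 25 (36%, median 0.03). Ccnb3, a cyclin of meiosis, fell to -2.09 ± 0.30 (adjusted p = 1.14e-10) and Ccnjl to -1.83 ± 0.31 (adjusted p = 5.33e-08) according to the authors' deposited table, beyond any member described above, and Cdk18 rose to 0.83 ± 0.27 (adjusted p = 0.00937). Mean counts of Ccnb3 and Ccnjl were 144 and 124. Of p53 and its targets, 7 of 13 were higher and 0 lower (median 0.52). That is 53.8%, where 17.1% of all genes and 2521 of 11133 abundant genes were called higher, and 44.3% of abundant genes in either direction. Among the 7 were Bbc3 (Puma) at 1.49 ± 0.27 (adjusted p = 5.56e-07) and Trp53 at 0.87 ± 0.19 (adjusted p = 4.47e-05) according to the authors' deposited table. The other calls were weaker, with adjusted p-values of 0.00844 to 0.0499 in the authors' DESeq2 test. Standard errors of this list were large for their abundance, with a median percentile of 88. Cdkn1a and Ccng1, also targets of p53, stood in the list of other cyclins, Cdks and inhibitors instead, so the 7 of 13 leaves both out. They had 0.37 ± 0.36 and 0.39 ± 0.29 and were not called in the authors' DESeq2 test (adjusted p = 0.471 and 0.316). Partners of P-TEFb and the Mediator kinase had 1 higher and 4 lower of 10 (50.0%, median -0.19). Aff4, a scaffold of the super elongation complex, rose to 1.07 ± 0.17 (adjusted p = 2.87e-09) according to the authors' deposited table, while Med12l, a Mediator kinase module gene, fell to -1.09 ± 0.24 (adjusted p = 3.54e-05) and Mepce, the capping enzyme of 7SK RNA, to -0.65 ± 0.16 (adjusted p = 0.000291). Of the list genes named, Ung, Anapc1, Orc5, Cdk18, Cables2, Wee1 and Cdc7 lost their call under the Benjamini-Yekutieli adjustment, with adjusted p-values of 0.0593 for Ung to 0.498 for Cdc7.

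**Figure D4:**
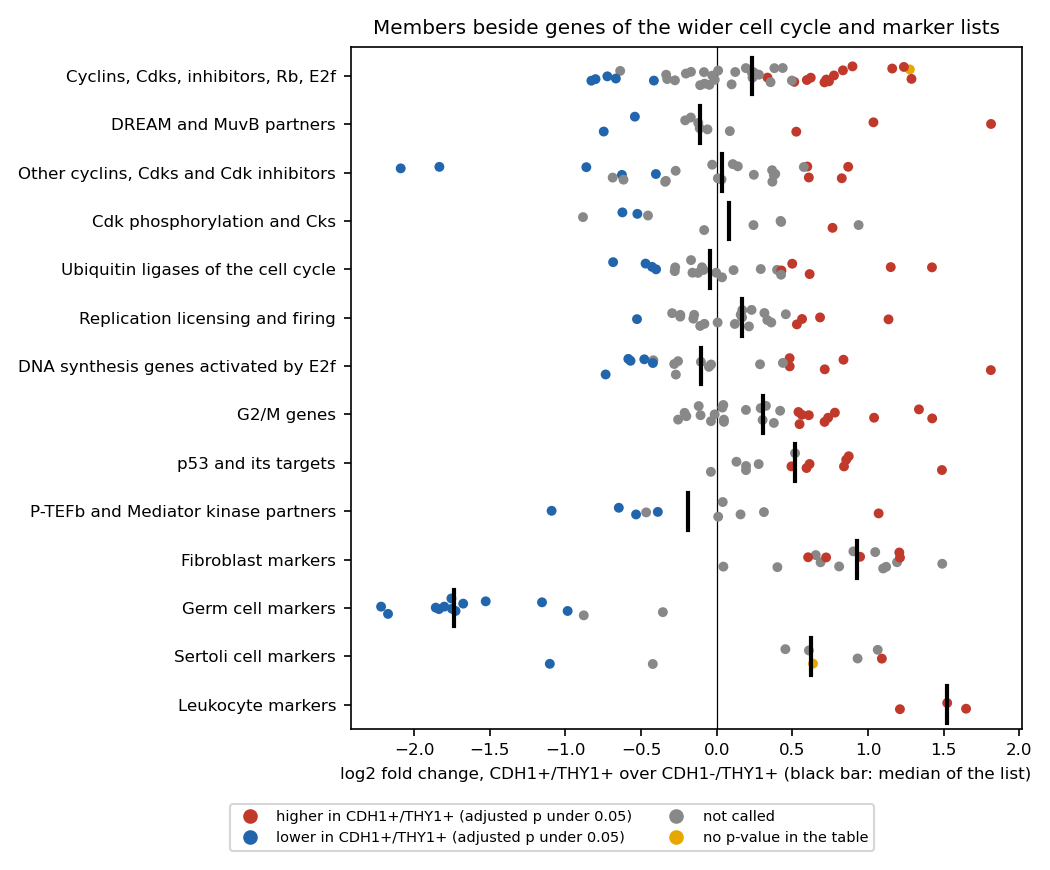
Log2 fold change (x axis, positive where CDH1+/THY1+ cells were higher than CDH1-/THY1+ cells) of each gene, 1 point per gene, for the members, 9 lists of the wider cell cycle and 4 lists of cell type markers, with the median of each list as a black bar. Points of the G2/M list called at an adjusted p under 0.05 all lie to the right of 0, DNA synthesis genes are called on both sides, and the germ cell markers lie far to the left with a median of -1.74.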

How the data were processed

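The submitters' processing notes name DESeq2 1.12.3 (R 3.3.1), Subread 1.5.0-p3 with featureCounts, TopHat2 2.1.1, Trimmomatic 0.32 and the build GRCm38.p4. Per the labels' protocols, libraries of ribosome-depleted total RNA were strand-specific. The annotation, strand setting and model formula are not given in the sources used here. The authors deposited 1 table of their DESeq2 comparison. Per the file headers, the authors' mean normalised count is a signal: counts of reads over a size factor, as 1 mean of the 6 libraries. The log2 columns deposited hold a fold change with its standard error. The deposited score is the Wald statistic, and the deposited p-value (empty in 102 rows) has an adjusted form (empty in 3221 rows). No value per library is held, so depth per sample is unknown and no model was fitted. Standard errors end at 0.639 even for genes with few reads, so fold changes may be shrunken towards 0.

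Symbols, positions and exon lengths came from GENCODE M21 (GRCm38), found for 22317 of 22432 identifiers. Calls used the authors' adjusted p under 0.05. The 200 genes of nearest mean count gave the percentile of a standard error. Scripts used Python 3.11.15, numpy 2.4.6 and pandas 2.3.3, and were tested on simulated data. The p-values rest on 3 samples per population, which are pairs from the same 3 cultures. As the model formula is not given, it is unknown whether they measure the spread between cultures or the spread within pairs. Members and lists were chosen with earlier results of these data known. Positions and full statistics were given for called members changed at least 2-fold and for the highest and lowest called member of each family, and genes named from the pathway lists are the 2 highest and 2 lowest called with a mean count of at least 100. For 1 gene that this rule names, the result is not reported here. Ccnb2, Cdk8 and Ccnt2 were described in addition, with their values known. Alternatives were Benjamini-Hochberg and Benjamini-Yekutieli adjustment over all rows with a p-value, an adjusted p under 0.01, a minimum fold change of 1.5, a minimum mean count of 100, and leaving out genes at or above percentile 90 of that standard error rank.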

Additional observations from a re-analysis of the deposited data

How the results depend on the processing

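No paired analysis was possible because the table holds no value per library, and for the same reason no sample could be left out. Of the 13 members called higher, 7 were called under the Benjamini-Yekutieli adjustment and 7 at an adjusted p under 0.01; Ccnd3, Ccnf, Ccng2, Cdc25a, Cdk4 and Rbl2 lost their call under each. Of the 5 called lower, 4 were called under either, without E2f1. The count of higher members was 11 with a minimum fold change of 1.5 and 10 without genes of large standard errors, which leaves out Ccnf, Ccng2 and Cdkn1b by construction. For all genes the Benjamini-Yekutieli adjustment left 1666 higher and 1967 lower, and an adjusted p under 0.01 left 2107 higher and 2313 lower. For the 9 pathway lists it left 22 higher and 12 lower of 40 and 23, an adjusted p under 0.01 left 27 higher and 15 lower, and a minimum fold change of 1.5 left 29 higher and 10 lower. These settings are stricter by construction. All use the same deposited fold changes, so no direction could change under them. Mean counts of the members other than Ccna1 (30.1) were at least 103, and depth per library is unknown.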
